A study of Mus musculus with 16 samples.

Results

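Methylation at 10 amplicons of a single-cell panel, picked because it goes with the surface proteins of bone marrow progenitors, is described here. They are AMPL388335, AMPL365938, AMPL388246, AMPL376551, AMPL377174, AMPL365895, AMPL366022, AMPL371743, AMPL388659 and AMPL388421, which makes 10 of the 663 amplicons of the panel. They were chosen from measured values of the same cells, namely the correlation of their methylation calls with antibody tags in stained bone marrow, their joint methylation in single cells and their levels in mature and endothelial cells. Those values are therefore given as a description, without tests. The tests below concern the age of the marrow and the repeat of the LARRY experiment. The rule of choice did not use these contrasts, but it did use cells of the libraries compared, among them the stained LARRY libraries.

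The assay was scTAM-seq, run on mouse cells with the Tapestri droplet instrument, which amplifies a fixed set of genomic targets from single cells. A restriction enzyme that spares methylated CpGs cuts the DNA before amplification, so an amplicon yields reads in a cell when its CpG was methylated there. A count of 1 read was enough to call a cell methylated at an amplicon, and the share of cells so called estimated the methylation level of a library. The series held 16 libraries and 95930 cells. Endothelium of the lung, mature immune cells from marrow plus spleen, mature myeloid cells from marrow plus peripheral blood, and mature myeloid cells from the lung gave 1 library each, all from LARRY mice, in which lentiviral DNA barcodes mark the descendants of single cells. Bone marrow gave 12 libraries: 1 of a transplantation experiment, 2 old and 2 young libraries of native mice without barcodes, 1 further native library, 2 mice of the LARRY replicate experiment and 4 mice of the LARRY main experiment. The labels give no genotype, strain, age in weeks, recipient or sorting gate, and they number the old and young libraries without naming animals, so p-values on these libraries measure only the spread between libraries, and that spread may be technical.

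DNA methylation is copied at cell division and is remodelled at some CpGs while blood stem cells commit to a lineage, so that some sites differ between stem cells, lineage-restricted progenitors and mature cells. Blood progenitors are told apart by surface proteins. Sca-1 and c-Kit together mark the most immature compartment of mouse marrow, CD150 marks stem cells and megakaryocyte and erythroid progenitors, CD48 is absent from the stem cells that renew themselves longest, and CD27 is carried by multipotent and lymphoid-primed cells. CD41 and CD61 form the fibrinogen receptor of the megakaryocyte lineage, CD115 is the receptor of macrophage colony-stimulating factor, and Ter-119 marks erythroid cells.

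Libraries held between 3385 and 10059 cells, and the median number of reads per cell lay between 14693 in the lung myeloid library and 89971 in main mouse 1. All 10 amplicons belonged to the 404 intermediate amplicons, with a mean share of 25 to 90% over the bone marrow libraries. In cells with a read, the median read number per library ran from 4 to 26 for AMPL388421, the shallowest of the 10, and from 42 to 357 for AMPL388246. Of the cells called methylated at AMPL388421, 19.9 to 54.9% had fewer than 5 reads. Exact 95% binomial intervals of the shares had half-widths of at most 1.67 percentage points and cover counting error only, since the reads carry no molecular identifiers and may repeat one molecule. Any 2 libraries shared between 5 and 40 cell barcodes. The files name the amplicons by panel identifiers and pair them with neither a position nor a gene.

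Surface tags were read in 4 bone marrow libraries, with 3103 stained cells in replicate mouse 1, 2675 in main mouse 3, 1342 in main mouse 4 and 2595 in the native library. In the native library the tags were Sca-1, CD48, CD150 and c-Kit, and in the other libraries 19 or 20 proteins. CD48 and CD49f gave the most counts, with medians of 66, 40 and 38 molecules of CD48 per stained cell of replicate mouse 1, main mouse 3 and main mouse 4. Sca-1, CD150, CD115 and Ter-119 had medians of 1 to 3 molecules in every stained library, so that low ends of these tags rest on few molecules. Within each library, methylation calls were correlated with each tag, ranked on its centred log ratio (the log count less the cell's mean log count), given the reads of the cell and its share of constitutive amplicons read. The 20% of stained cells with the most of a tag are called rich in it below, and the 20% with the least are called poor in it. Among 595 amplicons, 73 (12.3%) had a mean correlation of at least 0.2 in size with some tag, and 9 of the 10 followed here did, which restates their choice. Their largest correlations had a median size of 0.242, against 0.0663 over all amplicons, and ranked between 1 and 89 of 595. AMPL371743 was the weakest at 0.187. The strongest positive and the strongest negative tag of each amplicon kept its sign in every library stained for it. These tags were picked on their mean over the same libraries, so the shared sign is no independent check.

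**Figure D1:**
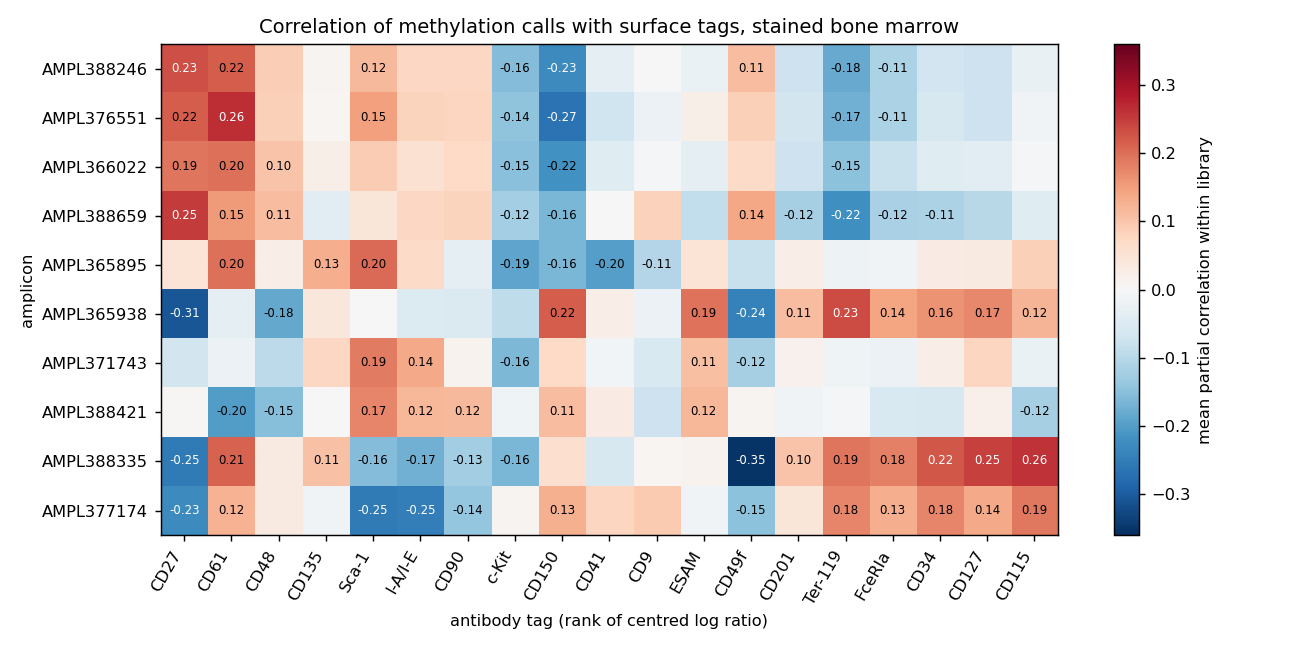
Mean partial correlation within library (colour, and printed where at least 0.1 in size) between the methylation calls of the 10 amplicons (rows) and 19 antibody tags (columns) in 3 or 4 stained bone marrow libraries. The first 4 rows share positive values at CD27 and CD61 and negative values at CD150 and Ter-119, and the last 2 rows, AMPL388335 and AMPL377174, are negative at CD27 and Sca-1 and positive at CD115.

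AMPL388246, AMPL376551, AMPL366022 and AMPL388659 had one pattern. They were methylated in most progenitors, and the unmethylated cells lay among those rich in CD150 and Ter-119 and poor in CD27 and CD61. At AMPL388246, CD150-rich cells were methylated in 71.8% of cases in replicate mouse 1, 72.3% in main mouse 3, 65.4% in main mouse 4 and 80.2% in the native library. CD150-poor cells were methylated in 95.2%, 96.8%, 91.4% and 98.1% of cases in these libraries, in the same order. The mean correlation of AMPL388246 was -0.228 ± 0.0101 with CD150 (SD, n = 4 libraries) and 0.233 ± 0.00911 with CD27 (SD, n = 3 libraries). AMPL376551 was methylated in 64.4%, 70.5%, 67.3% and 75.7% of CD150-rich cells, against 96.5%, 97.6%, 91.8% and 98.1% of CD150-poor cells. It was also the amplicon most tied to CD61, the beta-3 chain of the megakaryocyte integrin, with 98.2%, 99.3% and 97.8% of CD61-rich cells methylated in replicate mouse 1, main mouse 3 and main mouse 4, against 68.4%, 75.9% and 71.6% of CD61-poor cells. With CD41, the other chain of this integrin, the mean correlation of AMPL376551 was -0.0725 ± 0.0487 (SD, n = 3 libraries), negative in each library. In all 4 libraries CD150-rich cells were below CD150-poor cells at both amplicons.

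AMPL366022 was methylated in 67.6%, 69.3%, 71.0% and 82.9% of CD150-rich cells of replicate mouse 1, main mouse 3, main mouse 4 and the native library, against 94.0%, 92.9%, 92.9% and 98.1% of CD150-poor cells. The leading positive tag of AMPL388659 was CD27, as at AMPL388246, and its leading negative tag was the erythroid protein Ter-119, in place of CD150 at the other three. Every one of the 621 CD27-rich cells of replicate mouse 1 had a read of AMPL388659, as had 99.1% and 99.3% of those of main mouse 3 and main mouse 4, against 79.2%, 78.1% and 74.6% of CD27-poor cells. In molecules, cells with a read of AMPL388659 carried a median of 18, 13 and 9 CD27 molecules in these libraries, and cells without a read carried 3, 2 and 1.5. Its mean correlation was -0.221 ± 0.0527 with Ter-119 and 0.252 ± 0.01997 with CD27 (SD, n = 3 libraries each).

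AMPL365895 was methylated with Sca-1 and unmethylated with CD41, the alpha chain of the megakaryocyte integrin. Cells rich in Sca-1 were methylated in 90.2%, 91.96%, 92.9% and 88.6% of cases in replicate mouse 1, main mouse 3, main mouse 4 and the native library, against 63.5%, 69.2%, 70.9% and 67.6% of Sca-1-poor cells. Cells rich in CD41 were methylated in 59.4%, 63.6% and 65.8% of cases in the first 3 of these libraries, against 84.2%, 85.4% and 88.1% of CD41-poor cells. No other of the 10 amplicons had CD41 as its leading tag. With CD61, the beta chain of the same integrin, the sign of AMPL365895 was opposite. Its mean correlation was 0.199 ± 0.0221 with CD61 and -0.198 ± 0.0153 with CD41 (SD, n = 3 libraries each). In molecules, the median was 4, 2 and 2 of CD41 in cells with a read, against 5, 3 and 3 in cells without one. Mean Sca-1 counts were 10.8, 8.59 and 9.39 molecules with a read in these libraries, against 4.80, 4.73 and 4.26 without one. In the native library the order was reversed, at 7.07 with a read and 10.4 without one. The median there was 1 molecule in both kinds of cell.

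AMPL365938 ran against the first 4 amplicons. It was methylated in a minority of progenitors, and the methylated cells were poor in CD27 and rich in Ter-119 and CD150. Of CD27-rich cells 14.8% were methylated in replicate mouse 1, 17.6% in main mouse 3 and 16.7% in main mouse 4, against 60.5%, 62.6% and 60.4% of CD27-poor cells. Cells with a read of AMPL365938 carried a median of 11, 7 and 4.5 CD27 molecules, and cells without a read carried 19, 15 and 10. Its mean correlation with CD27 was -0.307 ± 0.0139 (SD, n = 3 libraries). Of Ter-119-rich cells 64.9%, 67.1% and 66.2% were methylated, against 37.7%, 30.8% and 27.6% of Ter-119-poor cells. Mean Ter-119 counts were 25.2, 13.9 and 10.2 molecules in cells with a read of AMPL365938 and 5.18, 3.54 and 6.03 in cells without one. The medians were close, at 1, 2 and 3 molecules with a read and 1, 1 and 1 without one.

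AMPL371743 and AMPL388421 were both methylated in Sca-1-rich cells. For AMPL371743 these shares were 71.5%, 63.4%, 57.2% and 52.8% in replicate mouse 1, main mouse 3, main mouse 4 and the native library, against 44.8%, 34.2%, 30.2% and 31.0% of Sca-1-poor cells. For AMPL388421 they were 75.4%, 47.3%, 53.9% and 55.9%, against 49.4%, 30.1%, 29.9% and 30.4%. The level of both amplicons was higher in replicate mouse 1 at either end of Sca-1, and the gap between Sca-1-rich and Sca-1-poor cells was 17.2 to 29.2 percentage points in the 4 libraries. AMPL388421 was also less often methylated with CD61, in 35.4%, 25.6% and 14.1% of CD61-rich cells of replicate mouse 1, main mouse 3 and main mouse 4, against 68.7%, 44.5% and 40.7% of CD61-poor cells. Median CD61 counts were 4, 4 and 5 molecules in cells with a read of AMPL388421, against 6, 5 and 7 in cells without one. Mean CD61 counts had no common direction, at 59.9, 14.0 and 10.9 with a read, against 15.6, 10.3 and 15.2 without one. The leading negative tag of AMPL371743, c-Kit, had a mean correlation of -0.161 ± 0.0299 on the centred scale (SD, n = 4 libraries), -0.121 with uncentred counts and -0.0633 without the minimum of 100 tag molecules. The median number of c-Kit molecules was close in both kinds of cell, at 26, 17, 16 and 25 with a read of AMPL371743 and 26, 19, 17 and 27 without one.

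AMPL388335 and AMPL377174 were methylated in cells poor in CD27, CD49f and Sca-1 and rich in CD115. AMPL388335 had the largest correlation of all 595 amplicons, -0.354 ± 0.0148 with CD49f, the alpha-6 integrin (SD, n = 3 libraries). Of CD49f-rich cells 29.0%, 35.5% and 33.1% were methylated in replicate mouse 1, main mouse 3 and main mouse 4, against 77.7%, 82.4% and 82.8% of CD49f-poor cells. Cells with a read of AMPL388335 carried a median of 45, 45 and 38 CD49f molecules, and cells without a read 83.5, 74 and 59. It was also positive with CD127, CD34 and CD115, at 0.247, 0.224 and 0.261. These 3 tags had medians of 1 to 5 molecules. With uncentred counts and the total as a covariate the value for CD115 was 0.231.

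AMPL377174 led with Sca-1. Of Sca-1-rich cells 59.1%, 62.2%, 65.8% and 75.5% were methylated in replicate mouse 1, main mouse 3, main mouse 4 and the native library, against 90.0%, 94.4%, 91.8% and 96.3% of Sca-1-poor cells. The median number of Sca-1 molecules was 1, 2, 2 and 1 in cells with a read of AMPL377174, against 5, 5, 5 and 4 in cells without one. It had a like negative correlation with class II proteins (I-A/I-E), -0.248, and a positive one with CD115, 0.191 ± 0.0492 (SD, n = 3 libraries). The sign with Sca-1 was thus opposite to that of AMPL365895, AMPL371743 and AMPL388421.

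**Figure D2:**
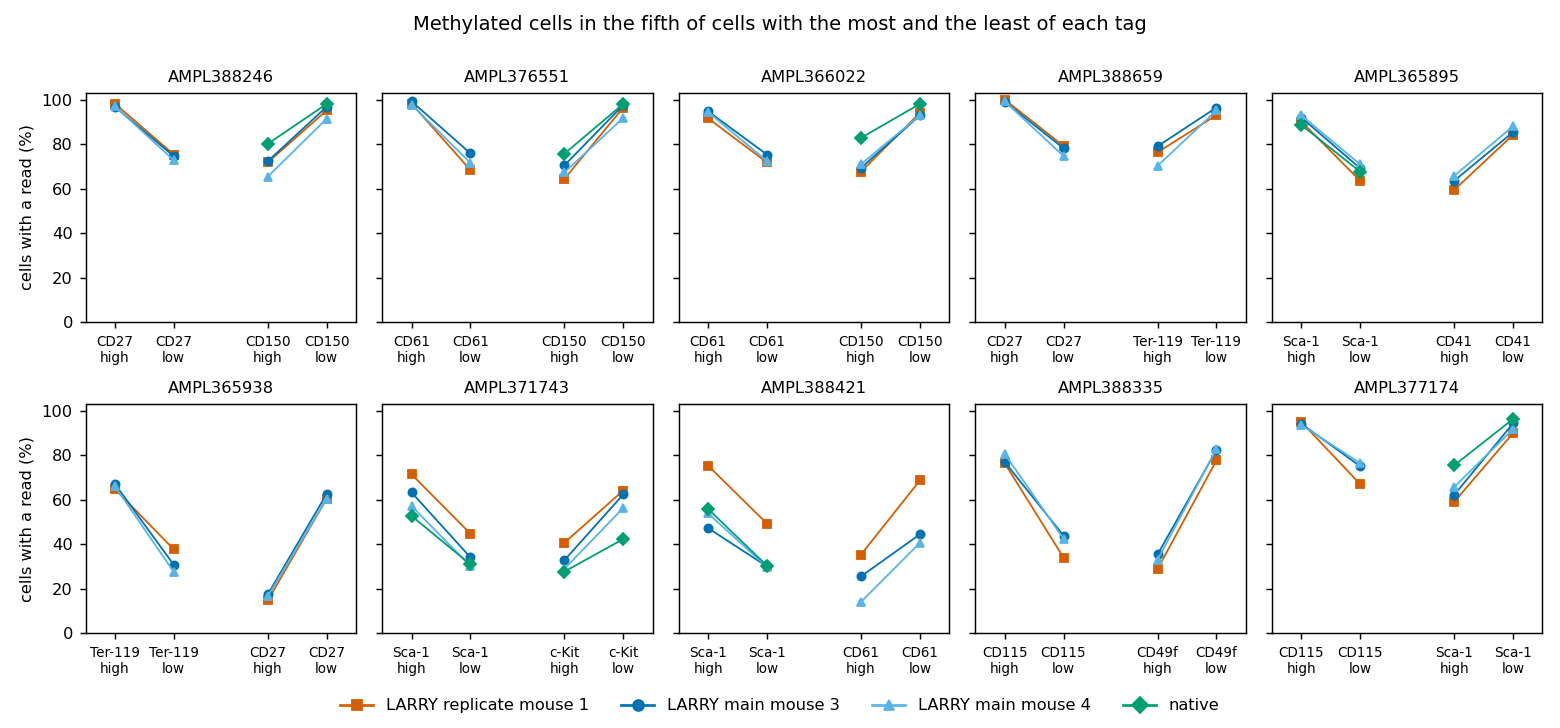
Share of cells with a read (y axis, percent) in the 20% of stained cells with the most (high) and the least (low) of the leading positive tag (left pair) and negative tag (right pair) of each amplicon, 1 line per stained bone marrow library. Every pair of points slopes the same way in each library, with the widest gaps at AMPL388335 with CD49f and at AMPL365938 with CD27. The tags were picked on these same libraries.

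Pairs of tags that known progenitor classes carry split the 10 amplicons further. Cells were ranked on each pair alone, so the classes themselves were not gated. The 10% of cells highest in CD135 (Flt3) and CD27, which lymphoid-primed progenitors carry, were methylated at AMPL365938 in 13.8%, 17.2% and 14.2% of cells of replicate mouse 1, main mouse 3 and main mouse 4, against 41.3%, 43.2% and 43.6% of the other stained cells. The same cells were almost fully methylated at AMPL376551, with 99.7%, 98.5% and 98.5% of cells, against 83.3%, 86.3% and 83.9%. The 10% highest in c-Kit and the Fc receptors CD16/32, the phenotype of myeloid progenitors, were methylated at AMPL388246 in 60.7% of cells of both main mouse 3 and main mouse 4, against 89.0% and 87.2% of the other cells. At AMPL365895 these cells were methylated in 61.4% and 57.0% of cases, against 79.8% and 80.9%. The CD16/32 tag was read in the main mice only.

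Stem cells carry CD150 and Sca-1, but c-Kit and CD48 were not used in this ranking. The 10% highest in CD150 and Sca-1 were more often methylated than the other cells at AMPL371743, AMPL365938 and AMPL388421 in all 4 libraries. At AMPL371743 83.0%, 63.1%, 58.5% and 41.2% of cells of replicate mouse 1, main mouse 3, main mouse 4 and the native library were methylated, against 49.4%, 42.7%, 39.0% and 33.6% of the other cells. AMPL365938 had 65.6%, 54.1%, 51.1% and 33.5%, against 35.5%, 39.1%, 39.5% and 22.1%, and AMPL388421 had 83.0%, 50.4%, 41.5% and 40.0%, against 55.1%, 37.0%, 36.9% and 31.8%. In the native library the differences at these 3 were 7.54, 11.3 and 8.18 points, close in size to the -10.4 points at AMPL376551. The sign at AMPL376551 was not shared, with 7.11, -0.264 and 0.590 points in replicate mouse 1, main mouse 3 and main mouse 4. The 10% highest in CD41 and CD61 differed from the other cells by -12.7 to 20.3 percentage points, and the difference changed sign between libraries at 8 of the 10 amplicons. The widest of these differences was at AMPL371743, which was methylated in 71.0%, 41.8% and 37.8% of these cells of replicate mouse 1, main mouse 3 and main mouse 4, against 50.7%, 45.0% and 41.3% of the others.

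Pairs of amplicons were also compared in single cells, which took part in their choice and is no separate check of the groups above. The mean partial correlation of calls over the 12 bone marrow libraries was at least 0.1 in size at 30 of the 45 pairs of the 10 amplicons, 15 of them positive, and at 4.77% of all 81003 pairs of intermediate amplicons, a contrast that the choice of the amplicons fixes. The 6 pairs among AMPL388246, AMPL376551, AMPL366022 and AMPL388659 had the highest values, 0.507 to 0.601. Their leading pair was AMPL388246 with AMPL376551, at 0.601 ± 0.0847 (SD, n = 12), which ran from 0.460 in old library 2 to 0.788 in the transplant library. In the transplant library 95.7% of cells with a read of AMPL388246 and 16.5% of cells without one had a read of AMPL376551. In main mouse 3 these shares were 94.3% and 32.6%, and in old library 2 they were 96.3% and 49.4%. AMPL365895 joined this group more weakly, at 0.218 to 0.361.

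AMPL365938 was opposed to the 4 amplicons, with its lowest value at AMPL388659, -0.325 ± 0.0999 (SD, n = 12 libraries). In main mouse 3, AMPL388659 was read in 66.1% of cells with a read of AMPL365938 and in 94.8% of cells without one. AMPL365938 was positive in each of the 12 libraries with AMPL388421 and AMPL371743. The means were 0.1955 ± 0.0820 and 0.160 ± 0.0651 (SD, n = 12 libraries each). AMPL371743 and AMPL388421 went together at 0.258 ± 0.0943, and AMPL388335 and AMPL377174 at 0.235 ± 0.0863 (SD, n = 12 libraries each), and every library of the 12 was positive for both pairs. The tie between AMPL371743 and AMPL388421 was 0.334 and 0.529 in old libraries 1 and 2, against 0.211 and 0.190 in young libraries 1 and 2. Other pairs also lay apart. AMPL388335 with AMPL366022 had 0.176 and 0.217 in old libraries, against 0.0240 and -0.0606 in young ones. AMPL377174 with AMPL371743 had -0.268 and -0.346, against -0.204 and -0.208. How many pairs lay apart was not counted, and no pair was tested for age. In old library 2, AMPL388421 was read in 72.7% of cells with a read of AMPL371743 and in 17.8% of cells without one, while young library 2 had 53.3% and 32.7%.

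This grouping was not seen in lung endothelial cells, where the shares leave less room for it. AMPL376551 was methylated in 20.2% of these cells, against 93.1%, 99.2% and 97.4% at AMPL388246, AMPL366022 and AMPL388659. Such unlike shares keep any positive correlation with AMPL376551 low, and few cells lacked a read of the others. The 6 pairs of the first 4 amplicons lay between -0.0230 and 0.0622 there, and 3 other pairs stood out. AMPL377174 was positive with AMPL365938 at 0.446 and negative with AMPL376551 at -0.402, and AMPL365938 was negative with AMPL376551 at -0.351. Cells without a read of AMPL377174 were few, since 95.7% of the library had one. Of the cells without one 96.7% had a read of AMPL376551, against 16.8% of the endothelial cells with a read of AMPL377174. Of the endothelial cells without a read of AMPL377174, 9.96% had a read of AMPL365938, against 88.5% of those with one. A small set of cells of the lung library thus carried the reverse of its usual calls at these 3 amplicons.

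**Figure D3:**
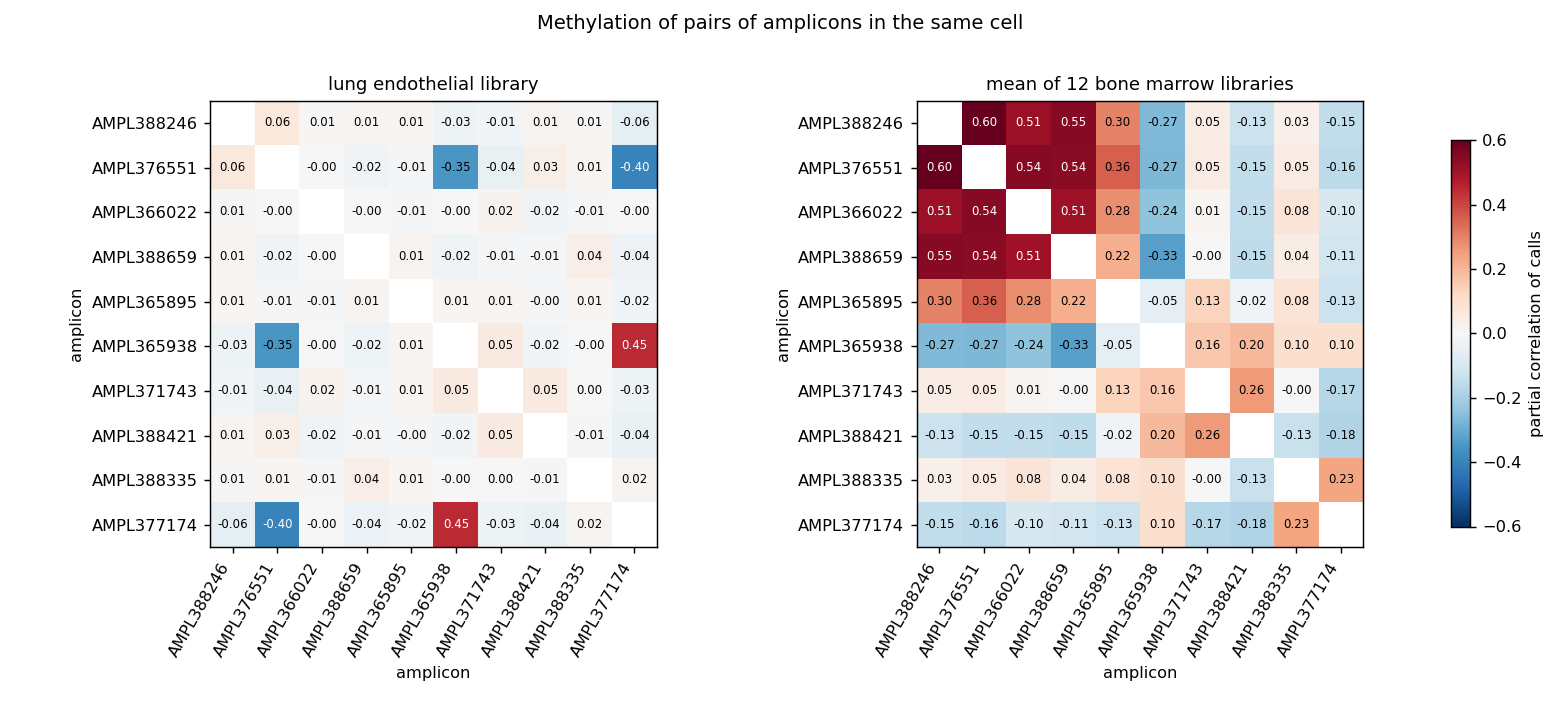
Partial correlation of methylation calls of each pair of the 10 amplicons within cells, in the lung endothelial library (left) and as the mean of 12 bone marrow libraries (right). In bone marrow the first 4 amplicons form a block at 0.51 to 0.60 and AMPL365938 is negative with it, while the endothelial library has values near 0 apart from the pairs among AMPL376551, AMPL365938 and AMPL377174.

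Amplicons outside the 10 that were most often methylated in the same cells are given as a description over the 12 bone marrow libraries. AMPL355546 was the nearest to AMPL388246, AMPL376551 and AMPL388659, with mean partial correlations of 0.521, 0.579 and 0.495. AMPL366159 was the nearest to AMPL366022 at 0.507 and to AMPL365895 at 0.364. AMPL365938 was nearest to AMPL388409 at 0.333, and the same amplicon was the most opposed to AMPL388246, AMPL376551, AMPL366022, AMPL388659 and AMPL365895, at -0.332, -0.336, -0.286, -0.365 and -0.0901. AMPL371743 was nearest to AMPL366093 at 0.324, AMPL388421 to AMPL371729 at 0.348, AMPL388335 to AMPL371420 at 0.280 and AMPL377174 to AMPL371446 at 0.213. Each of these nearest pairs was positive in all 12 libraries. The median size over all other amplicons was 0.0207 to 0.0326 for the 10, and such pairs share the cells, their depth and the tube.

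The block of 4 amplicons, which was singled out after its values were seen, was read in full in most bone marrow cells. Between 64.8% and 82.9% of cells of the bone marrow libraries had all 4 read and 2.54 to 18.1% had none of the 4. In replicate mouse 2, 8.51%, 8.51% and 11.2% of cells had 1, 2 and 3 of the 4, against 5.45% with none. In the transplant library these shares were 4.79%, 2.98% and 9.38%, against 18.1% with none. The transplant library had the most cells without any of the 4, 18.1%, and the fewest with all, 64.8%. The old libraries had all 4 in 68.4% and 72.01% of cells, against 81.7% and 82.9% in the young libraries. Exactly 3 of the 4 were read in 16.04% and 18.3% of old cells, against 11.995% and 8.55% of young cells. The shares with none overlapped, at 6.63% and 2.54% in the old libraries and 2.74% and 4.49% in the young ones. These contrasts were not tested, and old and young libraries did not overlap at 43.5% of all single amplicons tested. No lung endothelial cell lacked all 4, which allows a share of up to 0.0472%, and 72.8% of them had exactly 3. Cells with none of the 4 were also poorer in depth. In main mouse 3 they had a median of 38824.5 reads and 95.8% of constitutive amplicons read, against 46795 reads and 97.7% in cells with all 4. They were also more frequent among cells with fewer than 100 tag molecules, with 11.6% against 2.74% of stained cells in replicate mouse 1, 15.4% against 4.22% in main mouse 3, 13.2% against 5.89% in main mouse 4 and 4.04% against 0.886% in the native library. The part of depth in the share of cells with none of the 4 was not tested. The tag values above come from the stained cells only.

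**Figure D4:**
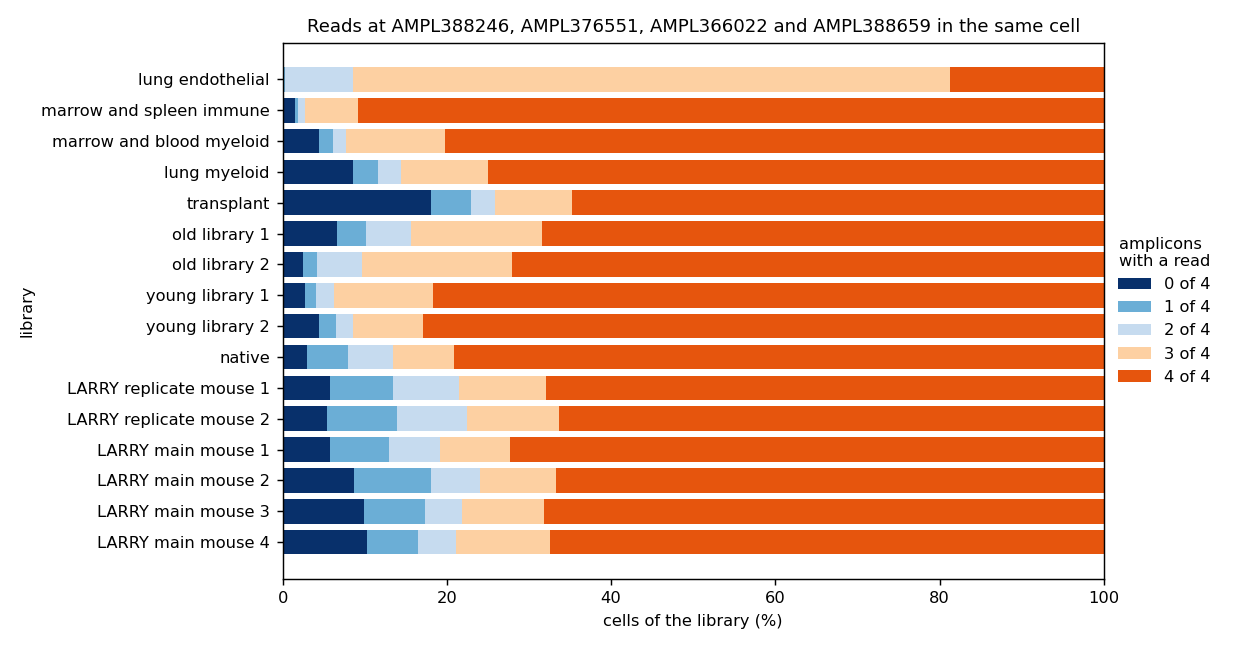
Share of cells (x axis, percent) with reads at 0 to 4 of the amplicons AMPL388246, AMPL376551, AMPL366022 and AMPL388659 in each of the 16 libraries. Most cells have all 4, the transplant library has the largest share with none, 18.1%, and 72.8% of lung endothelial cells have exactly 3.

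Mature cells were more often methylated than LARRY bone marrow at most of the 10 amplicons. Set against the lowest and highest of the 6 LARRY bone marrow libraries, 9 of the 10 were higher in lung endothelial cells, where 35.1% of the 404 intermediate amplicons were, and 7 of the 10 were higher in the marrow and spleen immune library, where 33.4% were. In the marrow and blood myeloid library 7 of the 10 were higher, and in the lung myeloid library also 7, where 14.6% of the intermediate amplicons were in either library. Lower than all 6 were 1 of the 10 in lung endothelial cells (46.8% of the intermediate amplicons), 1 in marrow and spleen (21.8%), 3 in marrow and blood (44.3%) and 1 in lung myeloid cells (31.4%). With all cells thinned to 11093 reads, an alternative chosen after seeing the data, 9, 9, 7 and 8 of the 10 were higher and 1, 0, 3 and 0 were lower in lung endothelial, marrow and spleen, marrow and blood, and lung myeloid cells, AMPL388421 being the one no longer lower. These levels took part in the choice of the amplicons, and with 1 library of each kind there is no replicate check.

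In the block of 4, mature immune cells of marrow and spleen were close to full methylation, with 95.7% of cells at AMPL388246, 97.2% at AMPL376551, 95.003% at AMPL366022 and 96.8% at AMPL388659. The LARRY bone marrow libraries lay at 78.3 to 83.3%, 77.9 to 82.8%, 77.8 to 83.1% and 81.5 to 85.4%. Myeloid cells of marrow and blood had 90.3%, 92.4%, 87.9% and 91.4%, and lung myeloid cells had 85.6%, 87.1%, 83.2% and 84.5%. AMPL365895 had 91.7% in marrow and spleen, 76.8% in marrow and blood and 79.7% in lung myeloid cells, against 68.97 to 74.5% in LARRY bone marrow. AMPL388335 had 85.3%, 82.0% and 72.3% in these mature libraries, against 56.03 to 65.5%.

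The other 4 amplicons had no common direction in mature cells. AMPL388421 was methylated in 13.5% of marrow and blood myeloid cells, 29.2% of lung myeloid cells and 30.8% of marrow and spleen immune cells, against 33.4 to 57.8% in LARRY bone marrow. AMPL371743 was methylated in 26.0% of marrow and blood myeloid cells, below the range of 34.2 to 57.3% in LARRY bone marrow, and in 43.5% and 55.1% of the lung myeloid and the marrow and spleen cells, within that range. AMPL365938 was methylated in 36.2%, 49.8% and 58.1% of marrow and blood myeloid, lung myeloid and marrow and spleen cells, against 38.9 to 48.1% in LARRY bone marrow. AMPL377174 had 96.6%, 90.2% and 87.8% in these libraries, against 84.1 to 89.0%. The lung myeloid library had the fewest reads per cell, and after all cells were thinned to 11093 reads AMPL388421 had 11.3% in marrow and blood, below the 25.6 to 47.2% of LARRY bone marrow, while lung myeloid cells at 27.9% and marrow and spleen cells at 26.3% lay within that range.

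Lung endothelial cells stood farthest from bone marrow, and in both directions. AMPL376551 was methylated in 20.2% of endothelial cells, against 73.8 to 93.1% over the 12 bone marrow libraries, and was the only one of the 10 that was lower there. Thinned to 11093 reads it was 19.5%, against 72.8 to 92.3%. The other 9 were higher than in any LARRY bone marrow library, with 85.2% at AMPL365938 against 38.9 to 48.1%, 89.2% at AMPL371743 against 34.2 to 57.3%, 99.0% at AMPL388335 against 56.03 to 65.5%, and 68.5% at AMPL388421 against 33.4 to 57.8%. The labels call this library endothelial and also give it the cell type of immune cells. Its tag table named 13 proteins, of which 3 were found in over 5% of cells: Sca-1, the endothelial protein CD31 and Podoplanin, a protein of lymphatic endothelium and alveolar epithelium. CD31 was found in 99.9% of 2933 stained cells with a median of 43 molecules. The other 10, which include the blood lineage proteins CD3 and CD11b, had 1 to 48 molecules each in all these cells and were found in at most 1.36% of them, and the labels do not say whether the cells were stained for them.

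**Figure D5:**
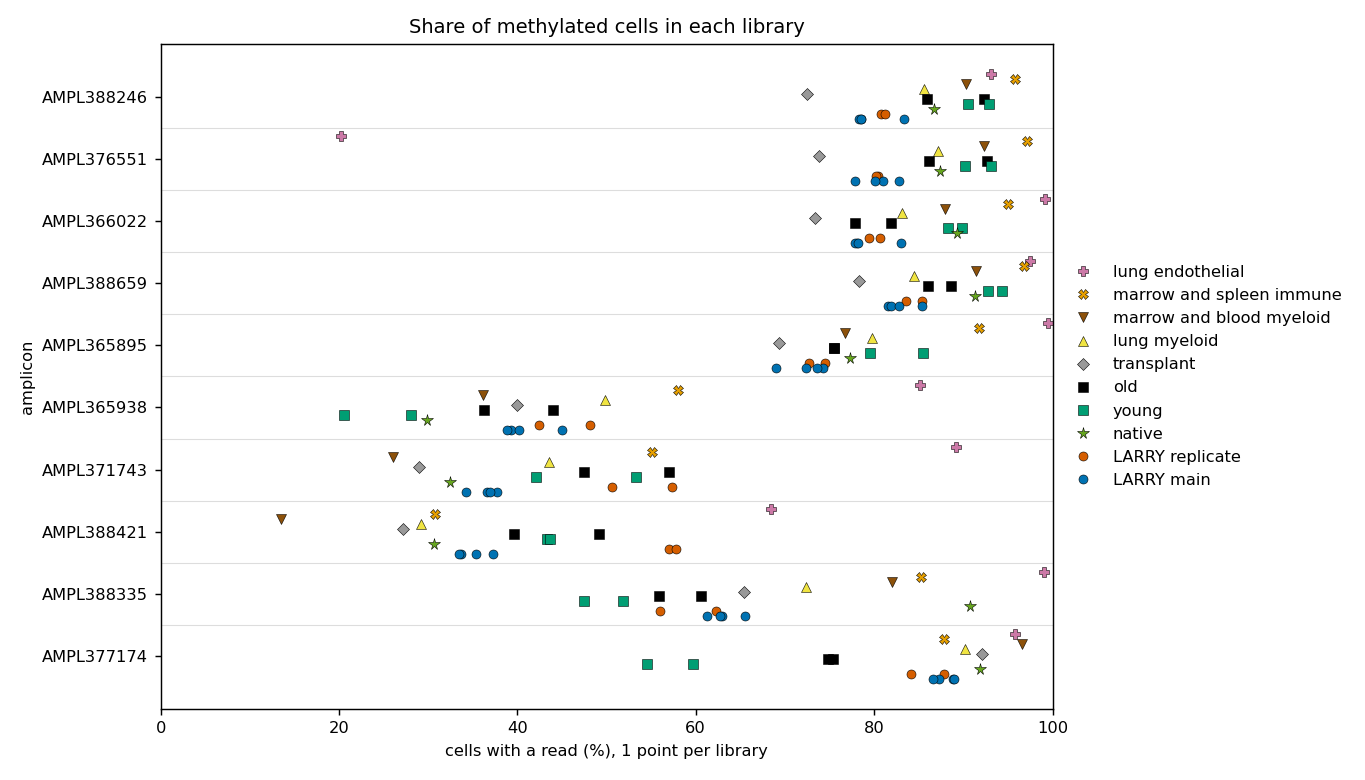
Share of cells with a read (x axis, percent) of each amplicon, 1 point per library, in the order of the groups in the legend. Lung endothelial cells lie at 20.2% for AMPL376551 and above every LARRY bone marrow library for the other 9, the native library lies at 90.7% for AMPL388335, and the young libraries lie below the other bone marrow libraries for AMPL377174.

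Tags of mature cells followed a different subset of the amplicons. In the marrow and spleen immune library, AMPL388421, AMPL371743 and AMPL365938 were less often methylated in cells rich in CD11b, an integrin chain of granulocytes, monocytes and other myeloid cells. Of the CD11b-rich cells 12.7%, 40.1% and 47.8% were methylated at these amplicons, against 48.8%, 72.5% and 72.8% of the CD11b-poor cells, with partial correlations of -0.291, -0.244 and -0.182 over 5359 cells of this library. AMPL377174 ran the other way, with 96.6% of CD11b-rich and 78.2% of CD11b-poor cells and a correlation of 0.202. The B cell protein CD45R gave the reverse picture for AMPL371743, methylated in 72.9% of CD45R-rich and 47.7% of CD45R-poor cells. The first 4 amplicons, close to full methylation there, had no correlation above 0.0456 in size with any tag of this library, where the median over all amplicons was 0.0518.

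The tags of the marrow and blood myeloid library had c-Kit and CD127 as their most abundant proteins and carried human and isotype names, which is unlike the mature myeloid cells that the labels give, so they are used with that limit. In it AMPL388421 had correlations of -0.269 with CD9 and -0.243 with CD61, and AMPL376551 had 0.241 and 0.240. Both signs with CD61 were those of the stained bone marrow libraries. For CD9 these libraries had means of -0.0749 at AMPL388421 and -0.0216 at AMPL376551, the latter without a common sign. With CD48 the signs differed, at 0.176 for AMPL388421, 0.205 for AMPL371743 and 0.0987 for AMPL365938, where the stained bone marrow libraries had means of -0.154, -0.0955 and -0.183. In the lung endothelial library, AMPL376551 was methylated in 11.9% of Sca-1-rich and 32.8% of Sca-1-poor cells and in 31.9% of Podoplanin-rich and 13.3% of Podoplanin-poor cells, while AMPL388659, of the same bone marrow block, was methylated in 95.2% and 97.95% of Sca-1-rich and Sca-1-poor cells. Tags for the lung myeloid library were not used here, because its tag table was the same as that of the lung endothelial library and held the barcodes of 23.9% of the lung myeloid cells and 99.6% of the lung endothelial cells.

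Single bone marrow libraries differed from the LARRY libraries at some of the 10. In the native library AMPL388335 was methylated in 90.7% of cells (exact 95% binomial interval 90.1 to 91.4%), against 56.03 to 65.5% in LARRY bone marrow and 47.5 to 60.6% in the young and old libraries. It was the farthest outside the LARRY range of the 10, by 25.2 percentage points. The native library was above the LARRY range at 7 of the 10 and at 30.9% of the intermediate amplicons, and below it at 3 and at 12.1%. The transplant library was below the range at 6 of the 10 and at 34.2% of the intermediate amplicons, and above it at 1 and at 16.6%. These 6 were the block of 4, with 72.4%, 73.8%, 73.4% and 78.3%, and AMPL371743 and AMPL388421, with 29.0% and 27.2%. Thinned to 11093 reads, 4 of the 10 were below the range in the transplant library, without AMPL376551 and AMPL366022, and 2 above it.

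The comparison of old and young native bone marrow asked whether the age of the mouse goes with the level of these amplicons. None of the 10 passed the quasi-likelihood test of edgeR, adjusted by Benjamini-Hochberg over 579 amplicons, of which 17 (2.94%) were called, 6 (1.04%) higher and 11 (1.90%) lower in old marrow. With the median log odds of the libraries made equal none of the 10 was called either, against 3.63% of all. At an unadjusted p under 0.05 there were 4 of the 10, against 15.2% of all amplicons tested. With limma, DESeq2 on reads and edgeR on reads none of the 10 was called either, and 4, 1 and 0 of them had an unadjusted p under 0.05. The number of calls in all turned on single libraries, with 80 without old library 1, 8 without old library 2, 4 without young library 1 and 0 without young library 2.

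AMPL377174 had the largest estimate. It was methylated in 75.4% and 74.8% of cells of old libraries 1 and 2, against 59.7% and 54.5% of cells of young libraries 1 and 2, and these do not overlap. The log odds difference was 0.82 (SE 0.317, unadjusted p = 0.00981, adjusted p = 0.178 by edgeR), and the adjusted p ran from 0.0694 to 0.927 over the alternatives. All 4 of these libraries lay below every other bone marrow library at AMPL377174, where LARRY, native and transplant marrow had 84.1 to 92.1%. AMPL365938 was methylated in 36.3% and 44.0% of old cells, against 20.6% and 28.1% of young cells, again without overlap. Its log odds difference was 0.75 (SE 0.325, adjusted p = 0.230 by edgeR), and leaving out old library 1 gave 0.91 and an adjusted p of 0.0467 (0.0467 to 0.940 over the alternatives) with a single old library, which the fit assumes to vary like the others.

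In the block of 4, the old libraries were lower without overlap at AMPL388659 and AMPL366022. AMPL388659 had 86.1% and 88.6% in old cells, against 94.3% and 92.8% in young cells, a log odds difference of -0.74 (SE 0.319, adjusted p = 0.217 by edgeR). AMPL366022 had 77.9% and 81.9% in old cells, against 88.3% and 89.9% in young cells, a difference of -0.72 (SE 0.317, adjusted p = 0.236 by edgeR). At AMPL388246 and AMPL376551 the libraries overlapped, with 85.9% and 92.3% old against 92.8% and 90.6% young at the first, and 86.2% and 92.7% old against 93.1% and 90.2% young at the second. Old and young libraries did not overlap at 6 of the 10, 3 higher and 3 lower in old marrow, and at 43.5% of all amplicons tested, 24.4% higher and 19.2% lower. Median reads per cell were 29540 and 50356 in the old libraries, against 28568.5 and 27421 in the young libraries. At equal reads per cell 4 of the 10 again had an unadjusted p under 0.05 and none was called.

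The LARRY replicate experiment was set against the main experiment to see whether levels were found again in other mice. AMPL388421 and AMPL371743 were higher in the replicate mice by the quasi-likelihood test of edgeR, adjusted by Benjamini-Hochberg over 596 amplicons, and the other 8 passed in neither direction. Of all amplicons 193 (32.4%) were called, 190 (31.9%) higher and 3 (0.503%) lower in the replicate, so 2 of 10 was no more than the share of the whole panel. At an unadjusted p under 0.05 there were the same 2, against 46.5% of all amplicons. AMPL388421 was methylated in 57.0% and 57.8% of cells of replicate mice 1 and 2, against 37.3%, 33.6%, 33.4% and 35.3% of cells of main mice 1 to 4. Its log odds difference was 0.92 (SE 0.112, adjusted p = 0.00822), and the adjusted p ran from 0.00763 to 0.428 over 16 alternatives, of which 13 called it. AMPL371743 was methylated in 50.6% and 57.3% of cells of the replicate mice, against 36.6%, 34.2%, 37.8% and 36.9% of cells of the main mice. Its log odds difference was 0.72 (SE 0.135, adjusted p = 0.0127), with adjusted p-values from 0.0118 to 0.471 and a call in 10 of the 16 alternatives. The replicate mice lay above all main mice at both amplicons, and at no other of the 10 did the libraries fail to overlap, while 54.2% of all amplicons tested did not overlap, 51.0% being higher and 3.19% lower.

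The median log odds difference over all amplicons tested was 0.47, higher in the replicate, and the differences of both called amplicons exceeded it while the other 8 lay between -0.17 and 0.18. When the median log odds of the libraries were made equal, 62 amplicons (10.4%) were called, 44 higher and 18 lower, against 190 and 3. Of the 10, AMPL388421 was then higher by 0.61 (adjusted p = 0.0251 by edgeR), AMPL388335 was lower at -0.47 (adjusted p = 0.0352 by edgeR), and AMPL371743 was not called. Without main mice 1, 2, 3 or 4 in turn 291, 99, 121 and 121 amplicons were called in all, and AMPL388421 and AMPL371743 each time. Without replicate mouse 2, 4 amplicons in all and none of the 10 were called, and the adjusted p was 0.0646 at AMPL388421 and 0.0827 at AMPL371743. The experiment and the mice differ together, so effects of one cannot be told apart from those of the other. AMPL388335 had 56.03% and 62.2% in the replicate mice, against 65.5%, 62.9%, 62.7% and 61.2% in the main mice, where the libraries overlap. The block of 4 was close in both experiments, with 80.4% and 80.2% at AMPL376551 in the replicate mice, against 82.8%, 77.9%, 80.9% and 80.1% in the main mice (log odds difference -0.0091, SE 0.134).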

How the data were processed

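The authors deposited 1 table of read counts per cell and amplicon for each of the 16 libraries, not normalized, made by scTAM-seq on the Tapestri instrument per the labels' protocols. Per the submitters' processing notes, mm10 was the build used. Tag files held deposited counts of unique molecular identifiers per cell and antibody. Aligner and cell filters: not given in the sources used here. Doublets were not called.

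Groups came from the sample titles. Cells with and without a read were compared per amplicon by edgeR 4.0.16 (R 4.3.3; quasi-likelihood test, an intercept per library, mean share of 2 to 98%, Benjamini-Hochberg threshold 0.05), with libraries as replicates. Alternatives used limma 3.58.1 and DESeq2 1.42.0. The fits and the partial correlations were tested on simulated data. The 77 amplicons found in 90% or more of the cells of each library were taken as constitutive. Tag correlations used cells with at least 100 tag molecules and tags found in over 5% of cells. The 20% and 10% of cells compared were ranked on the centred log ratio.

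The 10 amplicons, the lists and the tests were chosen with earlier results of these data known. Text names the 10, the tag with the largest positive and negative mean correlation of each, its nearest other amplicon, and others only where a result turns on them.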

Additional observations from a re-analysis of the deposited data

Results flagged for a closer look

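In the 4 main LARRY mice, the share of methylated cells in main mouse 1 stood apart from the other 3 at 2 of the 10 amplicons. At AMPL388246 it was 83.3%, against 78.3 to 78.5% in the other mice, and the gap was 0.958 of the whole range. At AMPL366022 it was 83.1%, against 77.8 to 78.2%, and the gap was 0.926 of the range. Chance flags about 1 in 20 groups of this kind, and both amplicons belong to the block of 4 that is methylated in the same cells, so the flags are not independent. The median depth of main mouse 1 was 89971 reads, that of the others 45003.5 to 61981, and thinned to 11093 reads per cell its shares were 78.8% against 73.9 to 76.4% at AMPL388246 and 76.5% against 72.4 to 75.1% at AMPL366022. The part of depth in these shares was not tested further.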

How the results depend on the processing

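No strongest tag and no leading pair changed sign under any alternative: 137 tag values moved by less than the SD between libraries and 31 moved further, and all 18 pair values moved by less. With 17 calls in all, old against young gave 8 with DESeq2 on summed reads, 0 with edgeR and TMM on summed reads, 8 at a call of 2 reads, 0 at 5 reads and 0 to 80 when 1 library was left out; members called were 0 to 1 without 1 library. With 193 calls, replicate against main gave 36 with DESeq2, 1 with edgeR and TMM, 62 with equal medians, 43 at a call of 5 reads, 76 with a replicate block and 4 to 291 without 1 library. Its 2 called members became 0 with TMM on reads, 1 at 5 reads, 1 with a replicate block and 0 to 2 without 1 library; DESeq2 called 2 others, AMPL377174 and AMPL376551, both lower. The replicate numbers do not pair the samples: deviations of same-numbered libraries correlated at 0.0664 for old and young, and at -0.189 and -0.293 for replicate and main. The block changed no call of a member in old against young, with 16 calls in all.

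Signs of uncalled members changed as follows, and the cause was not tested. For old against young, AMPL388246 (-0.27) was 0.092 with DESeq2 and 0.085 with TMM on reads, and without 1 library it ran from -0.60 to 0.077, AMPL376551 from -0.58 to 0.12, AMPL371743 from -0.043 to 0.41 and AMPL388421 from -0.16 to 0.23. For replicate against main, DESeq2 gave -0.38 at AMPL365938, -0.078 at AMPL388246, -0.26 at AMPL365895, -0.24 at AMPL366022 and -0.25 at AMPL388659, TMM on reads gave -0.35, -0.056, -0.24, -0.22 and -0.23, and equal medians gave -0.13, -0.23, -0.24, -0.27 and -0.19, in the same order. A call of 2 reads gave -0.035 at AMPL388246 and -0.14 at AMPL366022. A call of 5 reads gave -0.058 and -0.21 there and -0.039 at AMPL388659. Thinning gave -0.047 at AMPL388246, -0.0020 at AMPL365895, -0.15 at AMPL366022 and -0.030 at AMPL388659. The replicate block gave -0.040 at AMPL366022, and AMPL376551 ran from -0.062 to 0.041 without 1 library. Depth limits AMPL388421 most, with a median of 4 to 26 reads in cells called.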
